A study of Mus musculus with 2 samples.

Results

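The respiratory chain and ATP synthase genes were examined in mouse bone marrow-derived dendritic cells with and without UNE-C1. Members were taken by symbol: every entry that begins with Nduf, Uqcr or Atp5, or with Cox followed by 4, 5, 6, 7 or 8, together with Sdha, Sdhb, Sdhc and Sdhd, leaving out names that contain -ps. This gave 92 of the 23238 symbols in the files: 38 subunits of complex I, 7 Ndufaf assembly factors of complex I, 4 genes of complex II, 8 of complex III, 18 of complex IV and 17 of complex V. These classes follow the symbols, so complex I holds Ndufa4 and Ndufa4l2. Complex V likewise holds Atp5s and Atp5sl, which RefSeq names Dmac2l and Dmac2. An alternative assignment counts Ndufa4 and Ndufa4l2 in complex IV and leaves Atp5s and Atp5sl out. Its medians are not given here. A gene was compared when it had 50 or more reads in either library, and 84 of the 92 did.

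Each group was 1 library of cells from female C57BL/6 mice aged 7 weeks, cultured with 20 ng/ml GM-CSF and collected on day 6 as immature dendritic cells. One culture was the control and the other received 100 nM UNE-C1, a domain of cysteinyl-tRNA synthetase known as a ligand of the receptors TLR2 and TLR6, for 24 h; the control's record carries the same treatment text as the UNE-C1 record, and dose and time are taken here to hold for the UNE-C1 library only, from the sample titles. The cells were harvested from the non-adherent and loosely attached fraction, so that a library is a mixed culture and not a sorted type. The question was which signalling molecules UNE-C1 induces. No difference given here has a replicate check, no test could be made, and all intervals are exact 95% intervals that cover counting error only.

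The respiratory chain lies in the inner mitochondrial membrane. Complex I (NADH dehydrogenase) and complex II (succinate dehydrogenase) pass electrons to coenzyme Q, complex III passes them on to cytochrome c, and complex IV (cytochrome c oxidase) gives them to oxygen. Complexes I, III and IV pump protons, and complex V (ATP synthase) lets the protons flow back to make ATP. Activated dendritic cells and macrophages are known to shift from this route towards glycolysis. Most subunits are encoded in the nucleus and a few in mitochondrial DNA; none of the latter was found among the symbols in the files under 26 spellings searched, and they were not analysed here.

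The libraries held 14857198 reads (control) and 15975821 reads (UNE-C1). Levels are CPM, counts per 1e+06 reads of an effective library size (edgeR's TMM scaling); where a pair of levels or read numbers is given, the control stands first and UNE-C1 second. The kit reads messenger RNA near its 3′ end, so CPM is not divided by transcript length. Log2 differences are taken after adding 1 to each CPM, and ratios are plain ratios of CPM; both set UNE-C1 over the control. Counts of genes past 1.5-fold or 2-fold use the log2 differences, so a scarce gene can have a plain ratio past a fold and not be counted. Markers of the labelled cell type were uneven. The class II genes H2-Ab1 (45713 and 36789 reads), H2-Aa and Cd74 were abundant, and the dendritic integrin gene Itgax had 12693 and 3493 reads. Flt3 (143 and 62 reads) and Zbtb46 (62 and 62 reads), which mark conventional dendritic cells, were low, and Cd209a had no read. Markers of other cells differed between the libraries. All 13 neutrophil markers past the floor were at least 1.5-fold lower with UNE-C1, with a summed level of 8335 and 3216 CPM. None was at 0, and Ly6g was not among the symbols. Over all genes past the floor, 19.3% were at least 1.5-fold lower and 18.2% higher. Of 13 monocyte and macrophage markers 7 were at least 1.5-fold lower (53.8%) and 3 higher (23.1%). Their summed level was 8671 and 6199 CPM, and none was at 0. Of 7 mast cell, basophil and eosinophil markers 4 were lower (57.1%) and none higher (1355 and 929 CPM, none at 0). Of 10 lymphocyte markers 2 passed the floor (22.6 and 6.91 CPM in sum), and Cd3e had no read in either library. Of the 14 dendritic markers past the floor 3 were at least 1.5-fold lower (21.4%) and 2 higher (14.3%), near the shares of all genes. Their summed level was 15705 and 15041 CPM, most of it from class II genes. Clec9a (175 and 34 reads) was lower with Itgax and Flt3, and Irf8 (6634 and 14059 reads) and Xcr1 (54 and 189 reads) were higher. Their part in the results below was not tested. In such bulk libraries, fewer cells of a type and less RNA per cell cannot be told apart.

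Respiratory chain transcripts were slightly lower in the UNE-C1 library and differed little. Of the 84 genes, 64 were below the control (76.2%), against 50.4% of all 10469 genes past the floor. Their median log2 difference was -0.18, against -0.00 for all genes. The spread among them was narrow: the SD was 0.33, against 0.94 over all genes, and their interquartile range ran from -0.39 to -0.02. Large differences were rare in either direction. Only 9 members were at least 1.5-fold lower (10.7%), where 19.3% of all genes were, and 1 was at least 1.5-fold higher (1.19%), where 18.2% of all genes were. Past 2-fold, 2 were lower (background 9.42%) and 0 higher (background 9.31%). Without the floor, Cox6b2 (30 and 5 reads) was also past 2-fold lower. With the floor set on the mean of both libraries, 1 member was past 2-fold lower.

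Together the 84 genes took 1.29% of the control reads (interval 1.287% to 1.298%) and 0.924% of the UNE-C1 reads (0.919% to 0.929%). After scaling, their summed level was 11476 and 10409 CPM, a ratio of 0.907 (0.901 to 0.913). The size of the shift rests on the scaling. When total counts were used instead, the median of all genes moved from -0.00 to -0.33 and that of the members to -0.52, and 34 members were at least 1.5-fold lower and 0 higher, where 33.5% and 10.4% of all genes were. Relative to the median of all genes, the members' median stood at -0.18 with TMM and -0.20 with total counts. Of the 20 members above 0, 5 were still above it with total counts: Ndufv3 (0.34), Ndufs4 (0.17), Uqcrc2 (0.03), Ndufaf1 (0.02) and Cox7a2 (0.01).

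**Figure D1:**
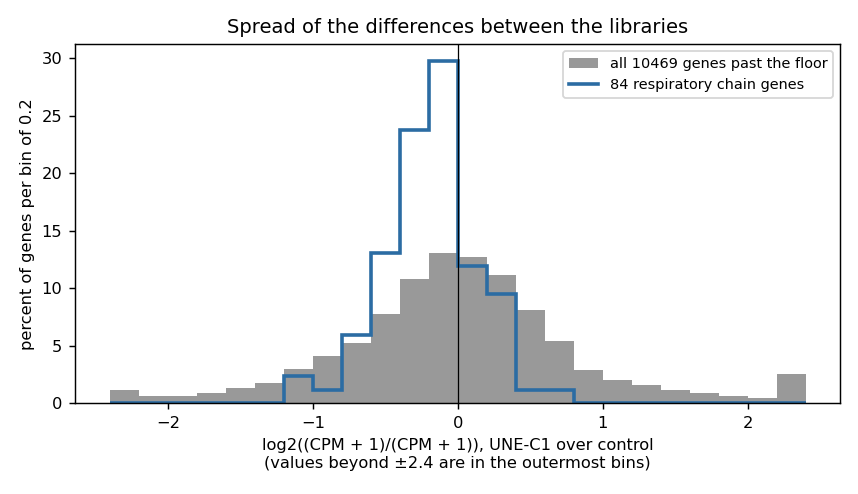
Share of genes (percent per bin of 0.2) by log2 difference between the UNE-C1 and control libraries, for all 10469 genes past the floor (grey) and the 84 respiratory chain genes (blue outline). The blue outline is narrower (SD 0.33 against 0.94) and centred below 0, at a median of -0.18.

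The complexes differed in how far their genes lay below the control. Complex V had the lowest summed ratio among the complexes, 0.802 (interval 0.792 to 0.813). Of its 17 genes by symbol, 16 were below 0 (94.1%, against 50.4% of all genes). Complex II had a lower median, -0.29 against -0.26 for complex V, but over 4 genes. Complexes I and IV were close to each other, with medians of -0.18 and -0.17 and summed ratios of 0.931 (0.920 to 0.943) and 0.941 (0.929 to 0.954). Complex III had a median of -0.04, with 4 genes below and 4 above 0, and its summed ratio was 1.04 (1.01 to 1.06), on the other side of 1 from its median. Its plain share of all reads was 0.126% and 0.103%. The Ndufaf assembly factors had the lowest median of all, -0.52. With 1 library per group the differences between complexes could not be tested, and with total counts complex III was also below the control, with a median of -0.38.

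**Figure D2:**
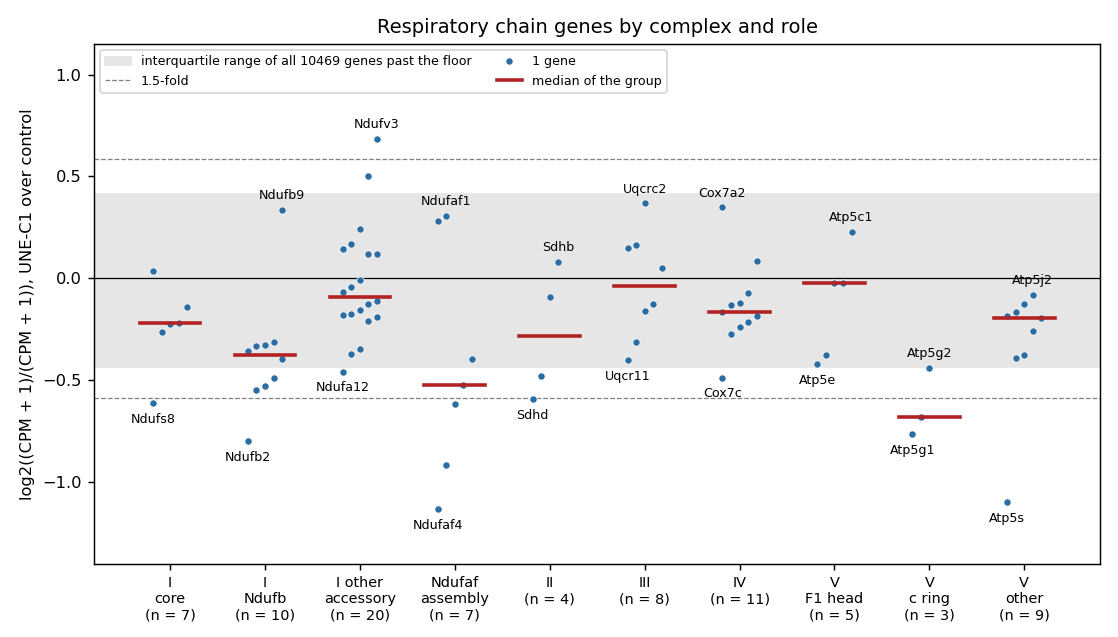
Log2 difference of 83 of the 84 genes past the floor, by complex and role; red bars are group medians over all 84, the grey band is the interquartile range of all genes past the floor and dashed lines mark 1.5-fold. The c ring of complex V and the Ndufaf factors have the lowest medians, at -0.68 and -0.52, and complex III lies around 0.

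Complex I takes electrons from NADH in a matrix arm, which holds the 7 nuclear-encoded core subunits, and pumps protons in a membrane arm. Of the core subunits 5 were below the control and 2 above, with a median of -0.22. Ndufs8, which holds iron-sulfur clusters (chromosome 19, 3908863 to 3912774, minus strand; positions are GENCODE M21 on GRCm38), was lowest, with 886 and 487 reads, or 52.9 and 34.3 CPM (1.54-fold lower, interval 1.38 to 1.73). Ndufv2, the most abundant core subunit, was at 84.4 and 76.5 CPM.

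The Ndufb genes encode accessory subunits of the membrane arm. They are grouped by name, and the membrane arm as a whole was not compared. The Ndufb genes were lower almost as a block: 9 of 10 were below 0 (90%, against 50.4% of all genes). Their median was -0.38, and 8 of the 9 lay between -0.31 and -0.55. Ndufb2 (chromosome 6, 39592574 to 39603382, plus strand) was the exception at the low end, with 527 and 251 reads (31.5 and 17.7 CPM, 1.78-fold lower, 1.53 to 2.08). Its exons overlap those of Braf on the opposite strand, which had 790 and 761 reads. Ndufb9 was the exception at the high end, at 111 and 141 CPM (ratio 1.26, 1.18 to 1.35). Ndufb8, the most abundant of them, was at 240 and 191 CPM (1.26-fold lower, 1.20 to 1.32). The summed ratio of the 10 genes was 0.821 (0.801 to 0.842).

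The other 20 accessory genes of the complex I class past the floor, Ndufa4 among them, were centred near 0. Their median was -0.09 and their summed ratio 0.984 (0.969 to 1.000). They held both the highest and some of the steadiest genes of the chain. Ndufv3, a small subunit of the NADH-binding end (chromosome 17, 31520115 to 31531331, plus strand), was the highest member by log2 difference and the only one at least 1.5-fold higher, with 2303 and 3141 reads, or 138 and 221 CPM (ratio 1.61, 1.52 to 1.70); with total counts it was above the control but short of 1.5-fold. Ndufs4, which is needed for a stable NADH-binding end, followed at 62.5 and 89.0 CPM (ratio 1.42, 1.31 to 1.55), short of 1.5-fold. Ndufa12 was lowest at 55.0 and 39.8 CPM (1.38-fold lower, 1.24 to 1.54), and Ndufa2, the most abundant, was at 282 and 248 CPM. Ndufab1, the mitochondrial acyl carrier protein, had only 130 and 96 reads, and its interval (ratio 0.871, 0.662 to 1.14) spans 1. The medians of the Ndufb genes and these accessory genes differed by -0.29, Ndufb lower.

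Assembly factors named Ndufaf help to build complex I and do not stay in it. They were scarce transcripts, from 58 to 310 reads in the control. Their median was -0.52 against -0.18 for the 37 subunits, a difference of -0.34 on the log2 scale. The 9 further assembly factors of complex I described below had a median of 0.01. Of the 7 Ndufaf factors 5 were below 0. At least 1.5-fold lower were 3 of them (42.9%), against 2 of 37 subunits (5.41%) and 19.3% of all genes. Ndufaf5 is not among the 3, since its log2 difference was -0.52; it was -0.63 and past 1.5-fold with a pseudocount of 0.1.

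Ndufaf4 (chromosome 4, 24898083 to 24905001, plus strand) was the lowest of all 84 genes by log2 difference, with 310 and 112 reads (18.5 and 7.90 CPM, 2.35-fold lower, 1.88 to 2.94). Ndufaf2 had 117 and 46 reads (2.16-fold lower, 1.52 to 3.10), which the pseudocount holds at a log2 difference of -0.91. Ndufaf7, a methyltransferase, had 85 and 42 reads (1.72-fold lower, 1.17 to 2.55). Ndufaf5 had 92 and 50 reads (1.56-fold lower, 1.09 to 2.25) and Ndufaf6 58 and 34 reads, with a ratio whose interval (0.439 to 1.07) spans 1. The other two were above the control. Ndufaf3 was at 16.7 and 20.4 CPM (ratio 1.23, 1.04 to 1.45), and Ndufaf1 had 74 and 81 reads (ratio 1.29, 0.930 to 1.79). Few reads stand behind these values, and Ndufaf2, Ndufaf6 and Ndufaf7 reached the floor of 50 reads in the control library only. The gap to the complex I subunits was -0.12 with a pseudocount of 5 and -0.44 with one of 0.1. Genes just inside the floor were Atp5s and Ndufaf6, with 57 and 58 reads in the control, and just outside it were Cox7a1 (26 and 39 reads) and Cox6b2.

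Complex II is also the enzyme of the citric acid cycle that oxidises succinate. Its soluble catalytic pair and its membrane anchors differed. Sdha, the flavoprotein, was at 162 and 152 CPM (ratio 0.938, 0.886 to 0.993) and Sdhb, the iron-sulfur subunit, at 318 and 336 CPM (ratio 1.06, 1.02 to 1.10). The anchors that bind coenzyme Q were both lower. Sdhc had 1639 and 993 reads (1.40-fold lower, 1.29 to 1.52) and Sdhd (chromosome 9, 50596357 to 50603812, minus strand) 1312 and 733 reads (1.52-fold lower, 1.39 to 1.66). Sdhd sat at the edge of 1.5-fold, with a log2 difference of -0.59, and was no longer past it with DESeq2 size factors. Summed, the catalytic pair had a ratio of 1.02 (0.985 to 1.05) and the anchors 0.690 (0.650 to 0.732).

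In complex III the large core proteins went opposite ways. Uqcrc1 was at 69.0 and 55.3 CPM (1.25-fold lower, 1.14 to 1.37) and Uqcrc2 at 116 and 150 CPM (ratio 1.29, 1.22 to 1.38). The last 300 bases of the Uqcrc2 transcript lie wholly within Pdzd9 on the opposite strand, which had 217 and 236 reads. Uqcr11, a small subunit, was lowest at 59.2 and 44.6 CPM (1.33-fold lower, 1.20 to 1.47), and Uqcrh, the hinge protein that contacts cytochrome c1, was the most abundant at 328 and 339 CPM. Uqcrfs1, the Rieske iron-sulfur protein, was at 77.6 and 69.4 CPM. None of the 8 genes was past 1.5-fold. Cyc1, cytochrome c1 of this complex, falls outside the symbol rule and is counted with the electron carriers below. It was at 60.5 and 57.0 CPM (ratio 0.942, 0.858 to 1.03).

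Complex IV was the most even of the complexes, with an SD of 0.21 over 11 genes and none past 1.5-fold. Cox8a, a small subunit and the most abundant, was at 415 and 395 CPM (1.05-fold lower, 1.01 to 1.09). Cox7c was lowest at 173 and 123 CPM (1.41-fold lower, 1.32 to 1.49). This value is uncertain, since 74.3% of the 3′ end of Cox7c is shared with other annotated transcripts, among them the pseudogene Gm10012, which had 2383 and 1677 reads. Cox7a2 stood out above the control at 331 and 422 CPM (ratio 1.27, 1.23 to 1.32), while its relative Cox7a2l was at 174 and 155 CPM (1.12-fold lower, 1.06 to 1.19). Within the summed reads of Cox7a1, Cox7a2 and Cox7a2l, the share of Cox7a2 was 65.3% (64.3% to 66.3%) in the control and 72.7% (71.8% to 73.7%) with UNE-C1.

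All 8 members below the floor are tissue-restricted or hypoxia-linked isoforms, and 7 of them belong to complex IV. The widespread forms carried nearly all reads. Cox4i1 was at 368 and 305 CPM (1.21-fold lower, 1.16 to 1.26), whereas Cox4i2, its hypoxia-responsive form, had 2 and 0 reads, where 0 reads allows up to 0.211 CPM. Cox6a1 was at 392 and 415 CPM, with 20 and 27 reads on the heart and muscle form Cox6a2. Cox6b1 was at 333 and 294 CPM, against the 30 and 5 reads of the testis form Cox6b2. The muscle form Cox8b and the forms Cox8c and Cox7b2 had no read in either library, beside 6942 and 5604 reads for Cox8a and 3156 and 2441 for Cox7b. In complex I, Ndufa4l2, a known target of hypoxia-inducible factors, had 21 and 8 reads, and its relative Ndufa4, now counted as a subunit of complex IV, had 323 and 310 reads (19.3 and 21.9 CPM). Neither hypoxia-linked isoform had more reads in the UNE-C1 library.

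**Figure D3:**
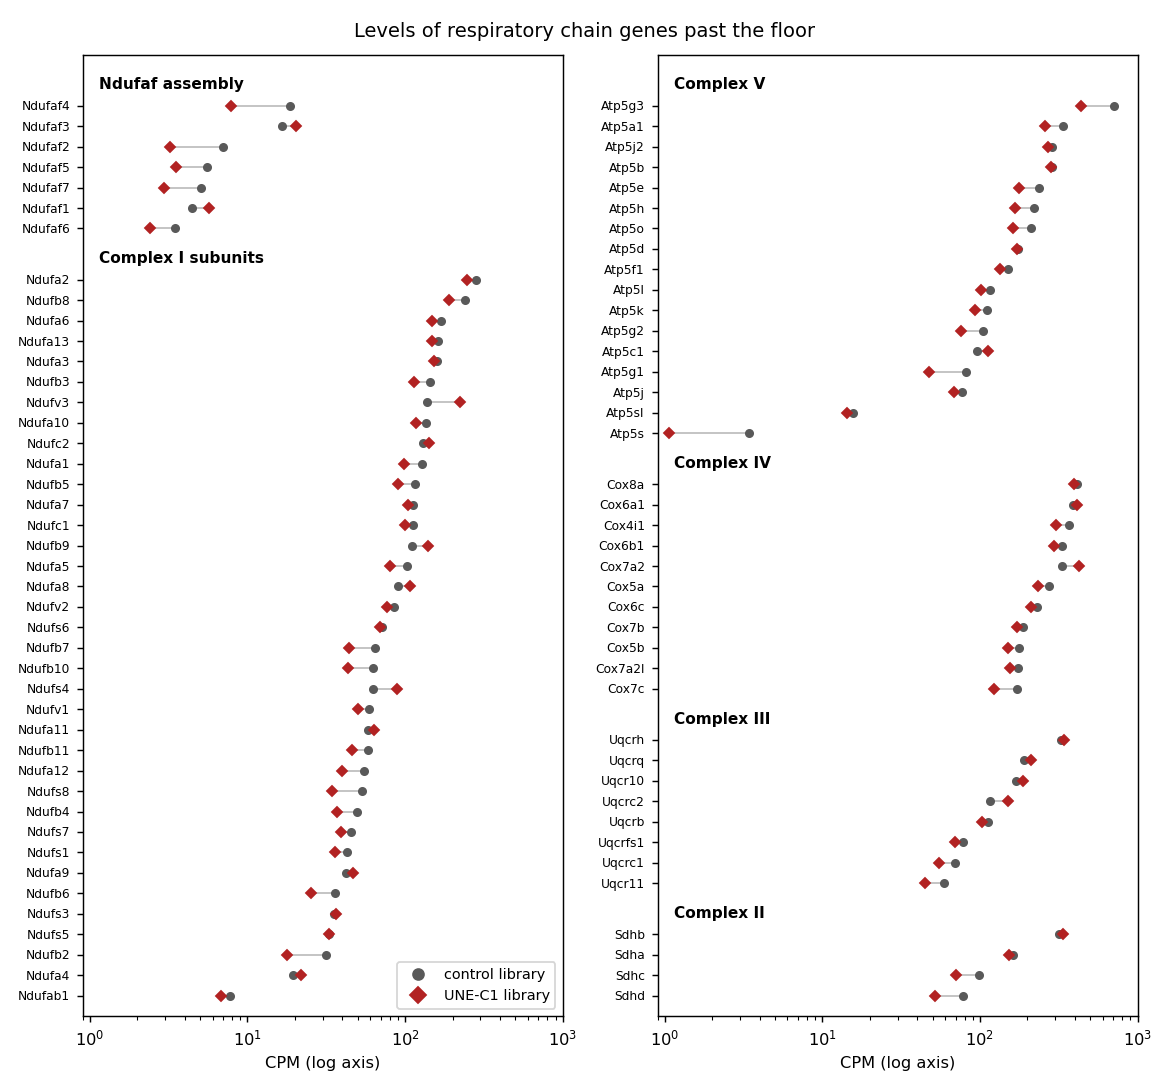
CPM (log axis) of 83 of the 84 genes in the control (grey circle) and UNE-C1 (red diamond) libraries, by complex and sorted by control level. Most red diamonds lie slightly left of the circles; Ndufv3, Ndufs4, Ndufb9, Uqcrc2 and Cox7a2 lie to the right, and the Ndufaf genes and Atp5s are among the least abundant.

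Complex V joins a catalytic F1 head in the matrix to a rotating ring of c subunits in the membrane. The c ring was where this complex differed most between the libraries. Its subunit is encoded by 3 genes, Atp5g1, Atp5g2 and Atp5g3, whose products differ in the import sequence that is cut off and yield the same mature protein. Atp5g3 (chromosome 2, 73908447 to 73911326, minus strand) was the most abundant of all 84 genes, with 11822 and 6253 reads (706 and 441 CPM, 1.60-fold lower, 1.55 to 1.65). Atp5g1 (chromosome 11, 96068852 to 96075670, minus strand) had 1364 and 674 reads (81.5 and 47.5 CPM, 1.72-fold lower, 1.56 to 1.88). Atp5g2 (chromosome 15, 102662864 to 102672352, minus strand) had 1737 and 1082 reads (104 and 76.3 CPM, 1.36-fold lower, 1.26 to 1.47). All 3 genes were thus lower, and 2 of them past 1.5-fold.

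Atp5g3 gave 79.2% of the reads of the 3 genes in the control (78.6% to 79.9%) and 78.1% with UNE-C1 (77.2% to 79.0%), and the share of Atp5g2 was 11.6% (11.1% to 12.2%) and 13.5% (12.8% to 14.3%). Their summed level was 892 and 565 CPM, a ratio of 0.633 (0.616 to 0.651), against 0.867 (0.854 to 0.881) for the other 14 genes of the complex. Without the ring, the median of complex V was -0.19 in place of -0.26. Of the 3′ ends, 47.5% of Atp5g2 and 27.6% of Atp5g1 are shared with other annotated transcripts, and none of Atp5g3 is.

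The F1 head was less uniform. Atp5b, the catalytic beta subunit, was at 286 and 282 CPM (ratio 0.986, 0.945 to 1.03), and Atp5d was as close to the control. Atp5a1, the alpha subunit and the most abundant of the head, was at 335 and 258 CPM (1.30-fold lower, 1.25 to 1.36). Atp5e was lowest of the head, at 238 and 178 CPM (1.34-fold lower, 1.28 to 1.41), and Atp5c1, the central stalk, highest at 95.2 and 112 CPM (ratio 1.17, 1.09 to 1.26). The alpha and beta subunits, which alternate in equal number in the head, therefore differed in ratio by more than their counting intervals.

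All 9 other complex V genes were below 0. Atp5j2, a membrane subunit, was the most abundant and nearest to the control at 287 and 271 CPM (1.06-fold lower, 1.01 to 1.10). The peripheral stalk genes Atp5h and Atp5o were at 220 and 168 CPM and at 211 and 162 CPM. Atp5s, whose product is not a structural subunit (RefSeq names the gene Dmac2l; chromosome 12, 69724950 to 69744660, plus strand), had 57 and 15 reads (3.22-fold lower, 1.80 to 6.13). Atp5s reached the read floor in the control library only. On the log2 scale Atp5s and Ndufaf4 were the genes past 2-fold. With a pseudocount of 0.1 there were 3 such genes, and with one of 5 there were 0. With the floor set on the mean of both libraries, Atp5s was left out and 1 gene, Ndufaf4, was past 2-fold lower.

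**Figure D4:**
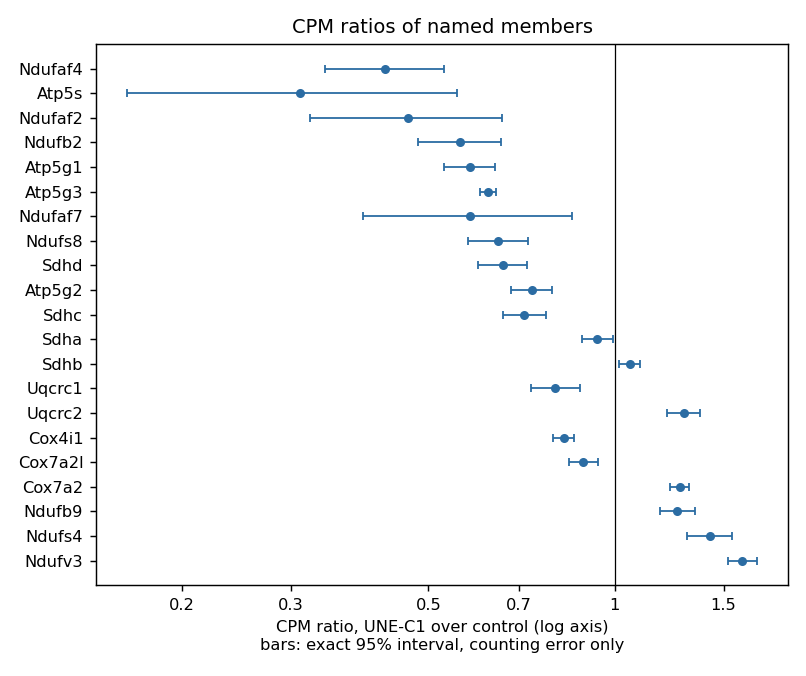
CPM ratio (UNE-C1 over control, log axis) of 21 members with exact 95% intervals for counting error. Intervals are wide for Atp5s, Ndufaf2 and Ndufaf7, which have few reads, and narrow for Atp5g3; Sdhc and Sdhd lie at about 0.7 and Sdha and Sdhb near 1.

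Promoters of the c ring genes, of the lowest member (Ndufaf4) and of the highest (Ndufv3) are shown: the first encode 1 mature protein and were all lower, and the other two are the ends of the range of log2 differences. They are RefSeq sequences on GRCm38.p6, from 250 bases before to 50 bases after the start, and capitals mark matches to the motifs searched on both strands. The motifs were the NRF1 motif (GCGC, any base, TGCGC; NRF1 is a known activator of respiratory chain genes), CCGGAAG (ETS factors such as GABPA), AAGATGGC (YY1), and the hypoxia response cores ACGTG and GCGTG. The letters CACGTG hold ACGTG on both strands and give 2 matches. The RefSeq starts of Atp5g1 and Atp5g2 lie inside the GENCODE spans given above.
Atp5g1 (chr11:96075582-96075881, minus strand): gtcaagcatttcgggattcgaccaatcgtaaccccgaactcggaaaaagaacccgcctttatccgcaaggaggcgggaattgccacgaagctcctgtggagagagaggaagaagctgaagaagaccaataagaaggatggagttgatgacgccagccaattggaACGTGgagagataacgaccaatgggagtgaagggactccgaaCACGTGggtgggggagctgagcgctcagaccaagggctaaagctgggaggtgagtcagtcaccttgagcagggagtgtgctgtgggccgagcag
Atp5g2 (chr15:102670998-102671297, minus strand): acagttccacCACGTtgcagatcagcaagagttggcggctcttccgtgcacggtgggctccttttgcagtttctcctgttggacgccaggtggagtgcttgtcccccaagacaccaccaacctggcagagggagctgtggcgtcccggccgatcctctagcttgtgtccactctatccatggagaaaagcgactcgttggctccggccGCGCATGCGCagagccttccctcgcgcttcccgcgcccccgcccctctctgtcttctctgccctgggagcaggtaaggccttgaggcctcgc
Atp5g3 (chr2:73911277-73911576, minus strand): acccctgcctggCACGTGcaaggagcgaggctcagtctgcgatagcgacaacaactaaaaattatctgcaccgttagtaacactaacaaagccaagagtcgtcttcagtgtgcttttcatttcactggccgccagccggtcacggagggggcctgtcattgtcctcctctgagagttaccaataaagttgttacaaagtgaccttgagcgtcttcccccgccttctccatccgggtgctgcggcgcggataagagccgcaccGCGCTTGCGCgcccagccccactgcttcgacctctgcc
Ndufaf4 (chr4:24897833-24898132, plus strand): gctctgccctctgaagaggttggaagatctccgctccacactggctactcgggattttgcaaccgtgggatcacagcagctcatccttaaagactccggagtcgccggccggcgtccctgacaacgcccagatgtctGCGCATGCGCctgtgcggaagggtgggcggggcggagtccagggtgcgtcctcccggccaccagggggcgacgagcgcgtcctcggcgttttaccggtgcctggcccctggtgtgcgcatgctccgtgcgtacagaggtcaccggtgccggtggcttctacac
Ndufv3 (chr17:31519865-31520164, plus strand): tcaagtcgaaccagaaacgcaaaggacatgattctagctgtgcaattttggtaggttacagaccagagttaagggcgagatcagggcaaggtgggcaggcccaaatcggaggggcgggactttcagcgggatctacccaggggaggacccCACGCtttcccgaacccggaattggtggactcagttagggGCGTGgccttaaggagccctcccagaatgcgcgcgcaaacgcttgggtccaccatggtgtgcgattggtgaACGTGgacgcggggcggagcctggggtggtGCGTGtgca

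The NRF1 motif is present in the windows of Atp5g2, Atp5g3 and Ndufaf4 and absent from those of Atp5g1 and Ndufv3; Ndufv3 holds 3 matches to GCGTG and 1 to ACGTG. Of the 84 genes, 72 matched a promoter entry. The NRF1 motif was in 19 of them (26.4%), against 12.0% of the 8420 matched genes past the floor and 4.63% of all 32544 promoters. The YY1 motif was in 11 (15.3%), against 5.83% and 2.77%. The ETS motif was in 23.6%, against 21.7% and 8.91%. The hypoxia cores were about as frequent in the members as in other genes past the floor: ACGTG in 25% against 30.1%, with 19.7% of all promoters, and GCGTG in 56.9% against 56.2%, with 32.6%. The median log2 difference of members with and without a motif was -0.31 and -0.17 for NRF1, -0.13 and -0.21 for YY1, -0.20 and -0.18 for ETS, -0.21 and -0.18 for ACGTG, and -0.16 and -0.22 for GCGTG. Members with the motif were thus lower for NRF1 and higher for YY1 and GCGTG, and none of these gaps was tested. A match is a description of letters in a window and not a measured site.

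Genes that build or feed the complexes mostly differed more widely than the 77 members outside Ndufaf. The SD of those 77, which include Atp5s and Atp5sl, was 0.30. The SD was 0.66 for complex IV assembly factors but only 0.34 for further assembly factors of complex I. These 2 lists were also scarcer, with control medians of 26.5 and 18.6 CPM against 113 for the 77 members. The part of scarcity in the spread was not tested. Of 23 assembly factors of complex IV past the floor, 5 were at least 1.5-fold higher (21.7%) and 5 lower (21.7%), close to the shares of all genes (18.2% and 19.3%), whereas none of the 11 subunits was. Sco1, a copper chaperone for the copper centre of complex IV, had 166 and 352 reads and was the highest, with a log2 difference of 1.24. Lrpprc, which stabilises mitochondrial messenger RNA, had 443 and 160 reads and was the lowest at -1.16. Among 9 further assembly factors of complex I none was past 1.5-fold, and the median was 0.01. They ran from Timmdc1 at -0.55 to Tmem126b at 0.57.

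The assembly factors of the other complexes were few. For complex II, Sdhaf4, which helps Sdha to join its partners, was lowest at -0.81 (393 and 184 reads), and Sdhaf2 highest at 0.28. For complex III, Uqcc3 was highest at 0.68 and Bcs1l, which inserts the Rieske protein, lowest at -0.47. For complex V, the assembly factor Atpaf2 was at 0.80 on 115 and 180 reads. Atpif1, the inhibitor that stops the reverse reaction of ATP synthase, was the most abundant of that list, with 9096 and 5353 reads and a log2 difference of -0.53.

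Electron carriers and the genes of coenzyme Q synthesis had a median of -0.06 over 16 genes. Of these, 3 were at least 1.5-fold lower (18.8%, background 19.3%) and 0 higher (background 18.2%). Cycs, cytochrome c, was highest at 0.49 (1088 and 1305 reads). Etfb, a subunit of the electron transfer flavoprotein that brings electrons from fatty acid oxidation to coenzyme Q, was lowest at -1.71, with 1964 and 498 reads. Among 13 regulators of nuclear mitochondrial genes and of mitochondrial DNA, 5 were at least 1.5-fold lower (38.5%, background 19.3%) and 0 higher, with a median of -0.06. Those past 2-fold were Pprc1, a coactivator of the PGC-1 family (119 and 38 reads, -1.14), and Tfb1m, a methyltransferase of mitochondrial ribosomal RNA (68 and 20 reads, -1.07). Yy1 was highest at 0.44.

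**Figure D5:**
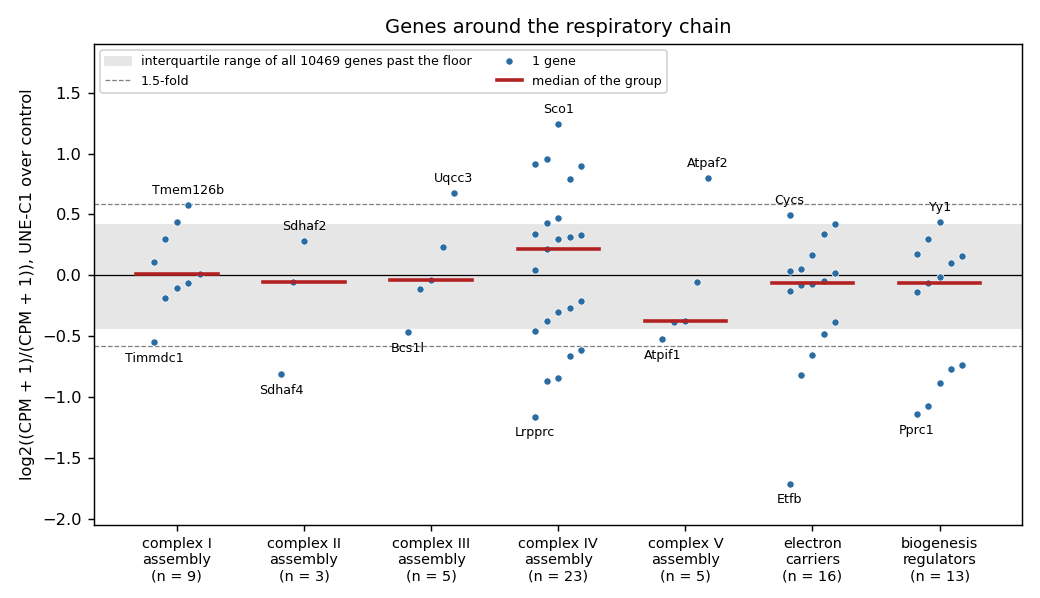
Log2 difference of genes past the floor on 7 lists of assembly factors, electron carriers and regulators; red bars are list medians, the grey band is the interquartile range of all genes past the floor and dashed lines mark 1.5-fold. Complex IV assembly factors spread from -1.16 to 1.24, and Etfb is the lowest gene shown, at -1.71.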

How the data were processed

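RNA of bone marrow-derived dendritic cells was sequenced in 1 control and 1 UNE-C1 library, prepared with a QuantSeq 3′ kit (500 ng RNA), per the labels' protocols. The deposited values are raw counts, whole numbers listed by gene symbol, as the values themselves show; Bowtie2, edgeR and mm10 are named in the submitters' processing notes without roles. No source used here gives the counting tool, annotation, strand setting or treatment of multiply mapped reads. Each file had 23282 entries; the 35 repeated symbols (no member among them) were summed and no symbol was blank. From the deposited counts, CPM was computed with TMM factors of 1.13 (control) and 0.888 (UNE-C1) (edgeR 4.0.16, R 4.3.3) and a pseudocount of 1 for log2 differences. Genes with 50 reads in either library were compared (2.99 CPM in the control, 3.52 in the UNE-C1 library). Exact intervals (Clopper-Pearson, 95%, scipy 1.17.1) cover counting error only, since PCR copies cannot be told from molecules. No count model was fitted. The steps were tested on simulated counts that hold counting error only. Such counts cannot decide which scaling suits the real libraries.

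Shared 3′ sequence is the percent of 40-base words in the last 300 bases of the longest coding transcript (GENCODE M21) that occur in another gene's transcripts on either strand. Of 83 members past the floor with a transcript, 52 shared none and 7 shared 50% or more.

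Members and lists were chosen with earlier results of these data known. Named were, per role, the highest, lowest and most abundant gene; all genes of complex II, the c ring, Ndufaf and the isoform sets; those past 1.5-fold; those nearest the floor; and, per list, the extremes and those past 2-fold. 1 core subunit of complex I is counted in medians and sums but is not reported singly here. Ndufs4, Uqcrc1, Uqcrfs1, Cyc1, Ndufab1, Atp5b, Atp5d, Atp5h and Atp5o were chosen after their values were seen. Alternatives were other scalings, pseudocounts, floors and class assignments.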

Additional observations from a re-analysis of the deposited data

How the results depend on the processing

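The direction of the medians held under every scaling, pseudocount and floor tried, but their size depends on the scaling. With total counts the median log2 difference was -0.52 for all members, -0.52 for complex I, -0.63 for II, -0.38 for III, -0.51 for IV and -0.60 for V, with 34 members at least 1.5-fold lower and 0 higher; all genes shifted by a like amount. With edgeR's upper quartile the medians of complexes III and IV were -0.13 and -0.25. A pseudocount of 5 left 4 members at least 1.5-fold lower. Under DESeq2 size factors, a pseudocount of 0.1, no floor, a higher floor and a floor on the mean, the median of all members lay between -0.19 and -0.17, with 6 to 10 members at least 1.5-fold lower. Of the single genes, 25 newly passed 1.5-fold with total counts and 3 with the upper quartile, while Ndufs8, Sdhd, Ndufaf2, Ndufaf7 and Atp5s fell short of it with a pseudocount of 5. Leaving out the 7 members with 50% or more shared 3′ sequence, an alternative chosen after seeing the data, gave a median of -0.18 over 77 genes, with 59 lower. No paired analysis was possible because each group has 1 library. Depth limits the values of the Ndufaf factors, Atp5s, Ndufab1 and Atp5sl, which had 15 to 310 reads.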

Other observations

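Most genes on a list linked to hypoxia or to the control of mitochondria were above the control, whereas most respiratory chain genes were below it. On this list of 8 genes, 7 were above the control and 5 were at least 1.5-fold higher (62.5%, where 18.2% of all genes were), with a median log2 difference of 1.04. Bnip3, a receptor for the removal of mitochondria, had 317 control and 6777 UNE-C1 reads (4.59). Higd1a, a small protein that binds complex IV, had 934 and 2940 reads (1.87). Mxi1, an antagonist of Myc, had 581 and 1343 reads (1.42), and Pdk1, the kinase that closes the entry of pyruvate into the citric acid cycle, 358 and 775 reads (1.31). Fundc1 was the gene below 0, at -0.03. The hypoxia-linked isoforms Ndufa4l2 (21 and 8 reads) and Cox4i2 (2 and 0 reads) are not on the list. Both were below the floor and neither had more reads with UNE-C1. The list was chosen with results of these data known, so its direction is not independent evidence.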
